A study of Arabidopsis thaliana with 6 samples.

Results

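The genes described here belong to families that build and remodel the plant primary wall: expansins and expansin-like genes, xyloglucan endotransglucosylase/hydrolases (XTH), pectin methylesterases (PME) and cellulose synthase-like genes (CSL). They were chosen by name, as probe sets paired with exactly 1 gene whose symbol or RefSeq synonym carries a family prefix and a number. EXPA7, EXPA8, EXPA18 and XTH19 were left out. This gave 36 genes, each with 1 probe set, of 13356 genes paired alone with a probe set. The RefSeq table holds 181 protein-coding genes with such names. The 36 genes include 7 of 23 alpha-expansin (EXPA), 4 of 6 beta-expansin (EXPB), 9 of 33 XTH, 3 of 15 PME and 8 of 32 CSL genes. Expansin-like genes make up the rest, with 3 of 3 EXLA and 2 of 3 EXLB genes. Statements on a family cover these genes only. The name rule also covered cellulose synthases (CESA), fasciclin-like and other arabinogalactan proteins (FLA, AGP) and extensins (EXT). No member of these 4 families was found among probe sets paired with exactly 1 gene. The glycoprotein families were therefore not analysed here, and the 36 genes are wall-loosening and wall-modifying proteins and synthases of matrix or tip-growth polysaccharides.

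The study measured RNA of 9-day-old Arabidopsis thaliana seedlings on 6 Affymetrix ATH1 arrays, 2 arrays in each of 3 groups. The line pRPS5A-Myc-GR-bdl expresses, from the RPS5A promoter, a fusion of the glucocorticoid receptor with bdl, a stabilised form of the auxin response repressor BODENLOS. The steroid dexamethasone (DEX) lets such a fusion enter the nucleus. The line mp-B4149 is mutant in MONOPTEROS (MP), the auxin response factor that BODENLOS binds, and is known for seedlings without a normal embryonic root. The controls were GR-bdl seedlings that received the auxin IAA at 50 µM for 1 h. The second group was GR-bdl seedlings given 10 µM DEX for 1 h and then the same IAA, and the third was mp seedlings given the same DEX and IAA. The titles of the mp samples name IAA alone, while their source labels and the design text give DEX as well, and these were followed. If mp received no DEX, the treatments in both mp comparisons would differ from those stated here. The treatment text names DEX for every sample, the controls included. Titles and source labels of the controls give IAA alone, and these were followed. If the controls received DEX, the treatments in both comparisons with them would differ from those stated here. All groups received IAA, the controls carry the transgene too, and the labels name no transgene in mp. DEX without the fusion was given to mp only, so its own effect and that of the fusion cannot be told apart within the GR-bdl line. Arrays of a group came from separate liquid cultures, per the labels' design text.

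A growing cell wall is a network of cellulose tied by xyloglucan and embedded in pectin. Alpha- and beta-expansins (EXPA, EXPB) loosen this network without cutting its polymers. The action of the expansin-like proteins (EXLA, EXLB) is less well known. XTH enzymes cut xyloglucan and rejoin it to another chain, or hydrolyse it. PME enzymes remove methyl groups from pectin, which changes its stiffness. CSLC proteins make the glucan backbone of xyloglucan, CSLA proteins make mannans, and CSLD proteins act in tip growth such as that of root hairs. Auxin is a classical trigger of wall loosening in elongating cells.

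Values are log2 of the deposited gcRMA intensity, and levels of different probe sets are not compared. A group mean under 4 is called near the low end of the range, where 43.1 to 44.1% of each array's probe sets lay. Of the 36 genes, 13 lay there in all 3 groups, and 21 had a mean of at least 4 over the 6 arrays. Called means a limma adjusted p under 0.05 over all 22746 probe sets. The 2 arrays of a group limit the precision of every value.

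**Figure D1:**
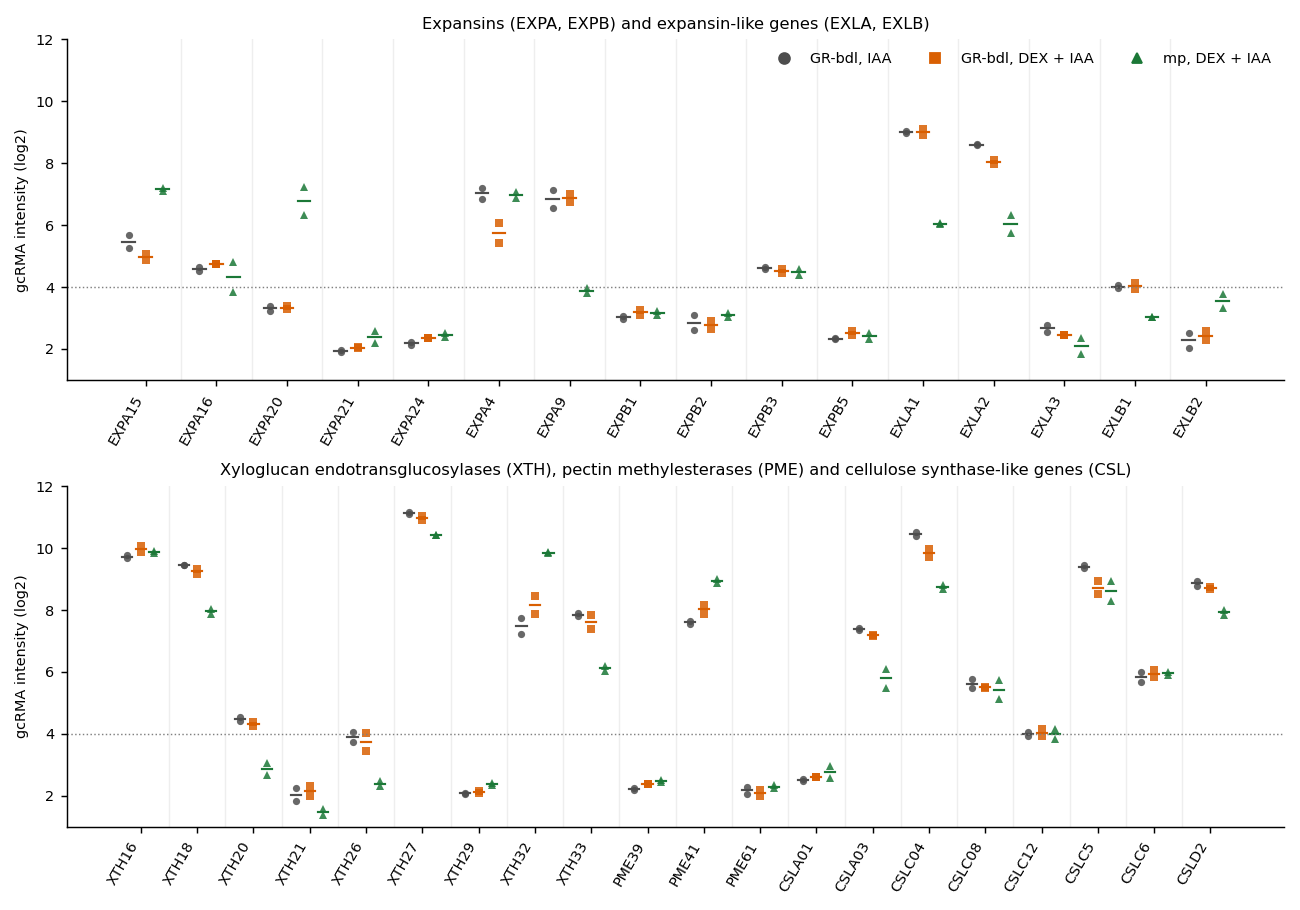
gcRMA intensity (log2) of the 36 genes on each of the 6 arrays, with points for arrays, short lines for group means and a dotted line at 4. EXPA9, EXPA20 and EXLA1 show control and DEX-treated GR-bdl arrays close together and mp arrays apart. EXPA4 stands lower in the DEX-treated GR-bdl arrays.

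The first comparison asked how these wall genes responded to release of GR-bdl before auxin. Of the 36 genes 1 fell, which is 2.78%, and 0 rose, against 2.27% of all probe sets called in this comparison (1.64% lower and 0.637% higher). Its size was over 1 on the log2 scale, as for 1.15% of all probe sets. The gene that fell is EXPA4, an alpha-expansin. The median difference of the 36 genes was 0.01 on the log2 scale, and that of all probe sets was 0.04. At an unadjusted limma p under 0.05 there were 2 of the 36 higher and 5 lower, together 19.4% against 12.4% of all probe sets. The arrays of the compared groups did not overlap for 10 genes on the higher and 12 on the lower side, and 44.1% of all probe sets were apart in this way.

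EXPA4 read 6.85 and 7.21 in the controls, 5.43 and 6.08 in DEX-treated GR-bdl, and 6.88 and 7.06 in mp. The DEX-treated GR-bdl arrays lay below all 4 others, and the mp arrays lay within the range of the controls. The difference with DEX was −1.27 ± 0.22 (SE), a 2.41-fold lower intensity, with a limma adjusted p of 0.0233. In mp, EXPA4 differed from the controls by −0.06 ± 0.22, with a 95% interval from −0.56 to 0.44, and stood 1.21 ± 0.22 above DEX-treated GR-bdl (limma adjusted p = 0.00236). The first call was lost without DEX-treated array 1 (−0.95, limma adjusted p = 0.0645), without control array 2 (−1.09, 0.161), and after adding 16 to each intensity before log2 (−1.06, 0.145).

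Several genes moved less with DEX and did not pass the test. CSLC04, a xyloglucan glucan synthase gene, read 10.39 and 10.52 in the controls and 9.70 and 9.98 after DEX, with no overlap. Its difference of −0.62 ± 0.13 had a limma adjusted p of 0.0609. It was called after centring on the hybridization controls (0.0346) and with an intensity trend in eBayes (0.0167). CSLC5, of the same subfamily, differed by −0.68 ± 0.22, EXLA2 by −0.55 ± 0.18 and EXPA15 by −0.49 ± 0.16. XTH32 and PME41 had positive differences of 0.68 ± 0.22 and 0.42 ± 0.13. The limma adjusted p of these 5 genes lay between 0.218 and 0.241. For EXLA1 the difference was 0.01 ± 0.12, with an interval from −0.26 to 0.28, so a change as large as that of EXPA4 lay outside it.

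The second comparison set mp seedlings given DEX and IAA against the GR-bdl controls given IAA. Wall genes differed in both directions, with more of the 36 lower than higher. In all, 15 fell and 7 rose, so 22 of 36 (61.1%) were called, against 41.5% of all probe sets. Lower calls made up 17.5% and higher calls 23.9% of all probe sets. The median difference of the 36 genes was −0.10, and that of all probe sets was 0.12. The sign of the first rests on mp array 2, since it was 0.02 without that array. It was −0.02 without control array 2 and −0.43 with hybridization control centring. The median of all probe sets was 0.12, 0.12 and −0.22 in the same order. In the main fit 31.8% of the calls among the 36 genes and 57.7% of those over all probe sets were higher. With hybridization control centring these shares were 21.7% and 25.7%. By size, 9 of the 36 fell and 5 rose by at least 1 on the log2 scale, and 15.4% of all probe sets were called with that size in either direction. The arrays did not overlap for 12 genes on the higher and 16 on the lower side, against 76.7% of all probe sets.

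**Figure D2:**
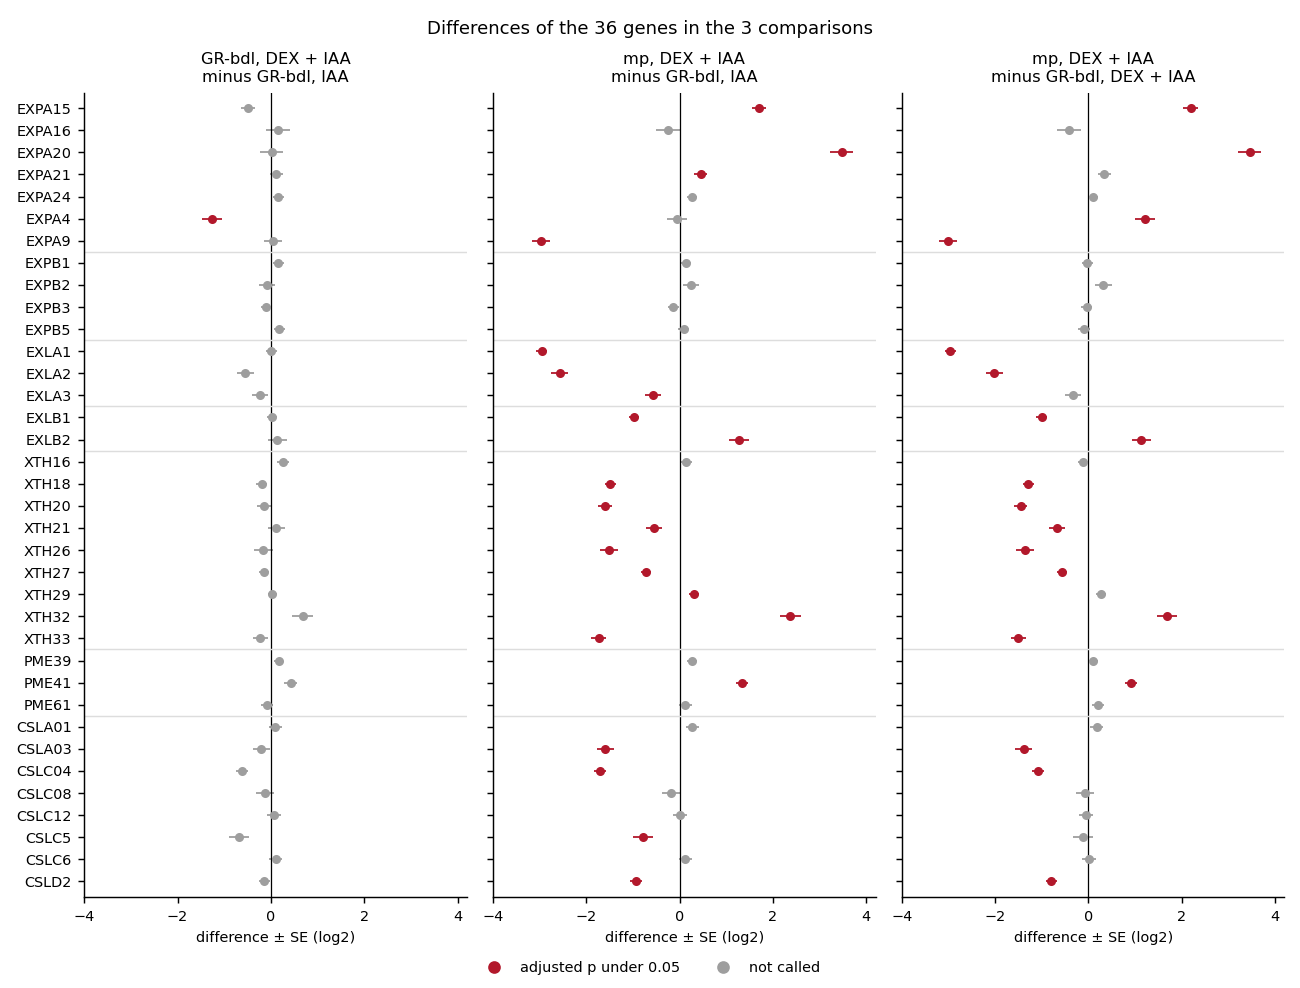
Differences ± SE (log2) of the 36 genes in the 3 comparisons, ordered by family, with called genes in red and others in grey. With DEX in GR-bdl only EXPA4 is red, whereas in mp XTH and CSL genes lie mostly to the left of 0 and EXPA genes lie on both sides.

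Alpha-expansin genes split in mp. Of 7, EXPA15, EXPA20 and EXPA21 rose, EXPA9 fell and 3 were not called, beside 23.9% higher and 17.5% lower among all probe sets. EXPA20 read 3.24 and 3.40 in the controls, 3.38 and 3.29 in DEX-treated GR-bdl, and 6.34 and 7.24 in mp. It thus left the low end of the range in mp alone, by 3.47 ± 0.25 against the controls (limma adjusted p = 1.3e-05). With 16 added before log2 this difference was 2.30. EXPA15 read 5.25 and 5.68 in the controls, 4.88 and 5.06 after DEX, and 7.11 and 7.22 in mp. Its rise against the controls was 1.70 ± 0.16, or 3.25-fold.

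EXPA9 took the opposite course. It read 6.55 and 7.14 in the controls, 6.75 and 7.02 after DEX, and 3.79 and 3.95 in mp, near the low end. It fell by 2.97 on the log2 scale (SE 0.19, limma adjusted p = 7.38e-06). EXPA21 rose by 0.45 ± 0.14 within the low end (1.93 to 2.38). The limma adjusted p of 0.0334 became 0.139 with control array 1 left out, 0.114 with control array 2 left out and 0.177 with mp array 1 left out. Quantile normalization done again (0.0783), hybridization control centring (0.56) and 16 added before log2 (0.139) also ended the call.

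The other EXPA genes, EXPA4, EXPA16 and EXPA24, were not called in mp against the controls. The mp arrays of EXPA16 disagreed, at 4.80 and 3.85, with controls at 4.66 and 4.51. Its difference of −0.26 ± 0.26 became −0.73 without mp array 1 (limma adjusted p = 0.00617) and −0.59 after centring on the hybridization controls (0.0367). EXPA24 and EXPA21 lie close together on chromosome 5, with 4 protein-coding genes between them, and both stayed near the low end in every group. Cross-hybridization between such copies was not tested.

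The beta-expansin genes showed no call in any of the 3 comparisons, by limma. Of the 4 genes, 0 had an adjusted p under 0.05, and 0 an unadjusted p under 0.05. Of all probe sets 12.4% passed the latter with DEX, 49.8% in mp against the controls and 47.4% in mp against DEX-treated GR-bdl. EXPB1, EXPB2 and EXPB5 lay near the low end in all groups, with group means from 2.33 to 3.18. EXPB5 is known from pollen. EXPB3 read 4.64 and 4.59 in the controls and 4.38 and 4.58 in mp, a difference of −0.13 ± 0.12 with an interval from −0.41 to 0.14. Centring on the hybridization controls made it a lower call (−0.47, limma adjusted p = 0.024).

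All 3 EXLA genes fell in mp against the controls, as did 17.5% of all probe sets. EXLA1 read 8.97 and 9.03 in the controls, 9.12 and 8.90 after DEX, and 6.04 and 6.06 in mp. The fall was 7.75-fold (−2.95 ± 0.12, limma adjusted p = 4.08e-07). EXLA2, a gene linked to responses to a fungal pathogen in other work, read 8.61 and 8.58 in the controls, 7.98 and 8.11 after DEX and 5.74 and 6.32 in mp. It fell by 2.57 on the log2 scale (SE 0.18). For both genes the mp arrays lay far below all GR-bdl arrays. EXLA3, which is the direct neighbour of EXLA1 on chromosome 3, fell from 2.66 to 2.10 within the low end (limma adjusted p = 0.0304). That call was lost without control array 1 (0.0549), control array 2 (0.167) or mp array 1 (0.157), and with 16 added before log2 (0.103).

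The 2 EXLB genes moved in opposite directions. EXLB1 fell from 4.01 ± 0.07 to 3.03 ± 0.01 (SD, n = 2), a difference of −0.98 ± 0.11. EXLB2, named in RefSeq as a synonym of AT4G30380, rose from 2.28 ± 0.34 to 3.55 ± 0.33 within the low end. With 16 added before log2 these differences were −0.41 and 0.41, and both stayed called.

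Of 9 XTH genes 6 fell in mp, 2 rose and 1, XTH16, was not called (0.14 ± 0.12, with an interval from −0.13 to 0.42). Over all probe sets 17.5% were lower and 23.9% higher. XTH18, of a clade of root-expressed enzymes, read 9.45 and 9.44 in the controls, 9.32 and 9.18 after DEX and 7.87 and 8.05 in mp. It fell 2.80-fold (−1.49 ± 0.12, limma adjusted p = 2.15e-05). XTH20 of the same clade fell by 1.60 on the log2 scale (SE 0.15), from 4.47 to 2.86. XTH26, known from root hairs, fell by 1.51 (SE 0.20), from 3.90 to 2.39 within the low end. With 16 added before log2 the differences of XTH20 and XTH26 were −0.71 and −0.54, and both stayed called.

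XTH33, whose protein is found at the plasma membrane, read 7.79 and 7.90 in the controls, 7.85 and 7.40 after DEX and 6.03 and 6.21 in mp. It fell by 1.73 on the log2 scale (SE 0.16). XTH27, known from the forming tracheary elements of leaves, fell from 11.13 ± 0.04 to 10.41 ± 0.00 (SD, n = 2), a 1.65-fold lower intensity. XTH21 fell by 0.56 (SE 0.18) within the low end. Its call was lost without control array 2 (−0.34, limma adjusted p = 0.244), mp array 1 (0.158) or mp array 2 (0.0662), and with 16 added before log2 (0.188).

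XTH32, of the clade that holds xyloglucan hydrolases, rose while 6 of the 9 XTH genes described here fell. It read 7.23 and 7.75 in the controls, 8.47 and 7.87 after DEX, and 9.87 and 9.84 in mp. All 4 arrays given DEX lay above the controls, and the mp arrays lay above all others. The rise in mp was 5.17-fold (2.37 ± 0.22, limma adjusted p = 5.69e-05). XTH29 also passed, at 0.30 ± 0.11 within the low end (limma adjusted p = 0.0489), but its call was lost without any single array of either group (0.106 to 0.233) and with the replicate block (0.0713). It was lost as well with quantile normalization done again (0.159) and with 16 added before log2 (0.137), and centring on the hybridization controls gave −0.03.

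**Figure D3:**
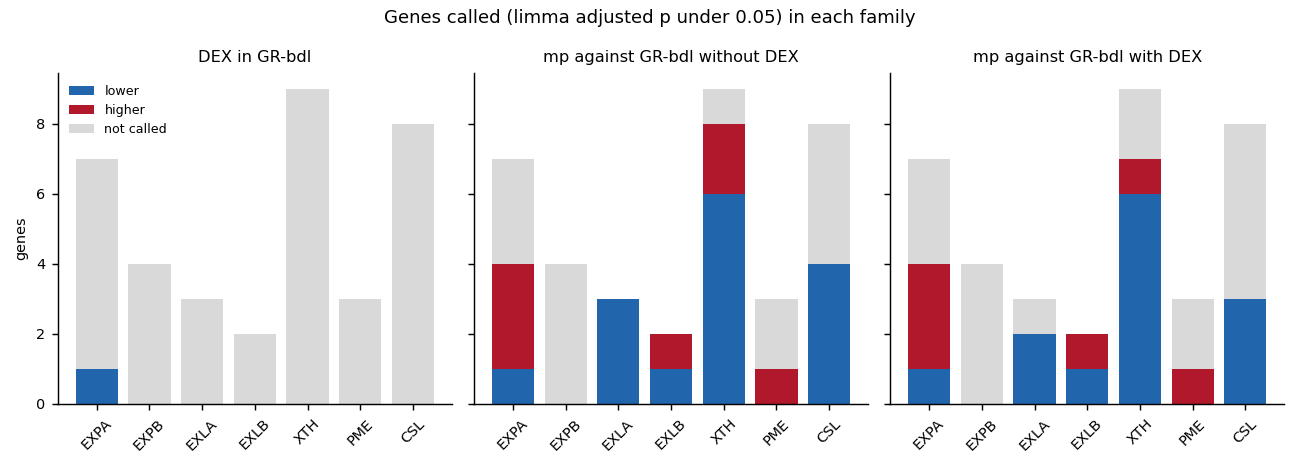
Number of genes per family that were lower (blue), higher (red) or not called (grey) in each comparison at a limma adjusted p under 0.05. The XTH bar is mostly blue in both mp comparisons, with 6 of 9 genes lower in each, and the EXPB bar is grey throughout. Among all probe sets 17.5% were lower in mp against the controls and 18% against DEX-treated GR-bdl.

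Of 3 PME genes, PME41 rose and 2 were not called in mp against the controls. Thus 33.3% were called, against 41.5% of all probe sets. PME41, linked to chilling tolerance in other work, read 7.54 and 7.65 in the controls, 8.17 and 7.87 after DEX and 8.88 and 8.99 in mp. Its rise was 2.53-fold (1.34 ± 0.13, limma adjusted p = 8.29e-05). PME39 lies near it on chromosome 4, with 2 protein-coding genes between them, and was near the low end in all groups. It differed by 0.27 ± 0.10 (limma adjusted p = 0.07), and was called after centring on array medians (0.0467). PME61 differed by 0.12 ± 0.13, also near the low end.

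Of 8 CSL genes 4 fell in mp and 0 rose, by limma, while 17.5% of all probe sets were lower and 23.9% higher. The CSL counts were the same at an unadjusted p under 0.05, which 49.8% of all probe sets passed in either direction. CSLC04 fell 3.25-fold, from 10.39 and 10.52 in the controls to 8.82 and 8.69 in mp (−1.70 ± 0.13, limma adjusted p = 1.92e-05). Its levels after DEX lay between those of the controls and mp without overlap. CSLA03, a gene for a mannan synthase, fell from 7.39 ± 0.03 to 5.80 ± 0.45 (SD, n = 2). CSLD2, which acts in root hair walls, read 8.95 and 8.77 in the controls and 8.01 and 7.85 in mp, a 1.91-fold fall. CSLC5 fell by 0.79 (SE 0.22, limma adjusted p = 0.0192). That call was lost without control array 1 (0.0571), control array 2 (0.0847) or mp array 2 (−0.47, 0.099), and with 16 added before log2 (0.0748).

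The other CSLC genes did not move with CSLC04. CSLC6 differed by 0.12 ± 0.14, CSLC08 by −0.19 ± 0.20 and CSLC12 by 0.00 ± 0.15, with intervals that all excluded a fall as large as that of CSLC04. Centring on the hybridization controls gave CSLC08 a lower call (−0.53, limma adjusted p = 0.0339). CSLA01, near the low end, differed by 0.27 ± 0.14 and was called higher without mp array 2 (0.47, limma adjusted p = 0.0306).

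The last comparison had DEX and IAA on both sides and put mp beside the GR-bdl line. It shares the mp arrays with the second, so its values are given beside those above and not as a separate support. Of the 36 genes 13 were lower in mp and 6 higher, which is 52.8%, against 40.1% of all probe sets. Lower calls made up 18% and higher calls 22.1% of all probe sets. The median difference was −0.08 for the 36 genes and 0.07 for all probe sets. For the 36 genes it was −0.02 without mp array 2, −0.04 with 16 added before log2, −0.05 with centring on array medians and −0.35 with hybridization control centring. For all probe sets it was 0.08, 0.02, 0.10 and −0.20 in the same order. Higher calls made up 31.6% of the calls among the 36 genes and 55.2% over all probe sets. With hybridization control centring these shares were 28.6% and 29.7%. By size, 10 were lower and 5 higher by at least 1, against 15.3% of all probe sets. The arrays did not overlap for 12 genes on the higher and 14 on the lower side, against 68.5% of all probe sets.

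EXPA20, EXPA15 and EXPA4 were the EXPA genes higher in mp here, by 3.46 ± 0.25, 2.19 ± 0.16 and 1.21 ± 0.22. With 16 added before log2 the first was 2.29. EXPA9 was lower by 3.01 on the log2 scale (SE 0.19). EXLA1 and EXLA2 were lower, at −2.96 ± 0.12 and −2.02 ± 0.18, while EXLA3 was not called (−0.34 ± 0.17). EXLA3 was called lower without mp array 2 (−0.60, limma adjusted p = 0.0188) and after centring on the hybridization controls (0.0226). EXLB1 was 2.01-fold lower and EXLB2 was higher by 1.13 ± 0.21, and with 16 added before log2 their differences were −0.42 and 0.38, still called.

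XTH18, XTH20, XTH21, XTH26, XTH27 and XTH33 were lower, by 0.57 to 1.51 on the log2 scale, and XTH32 was higher by 1.69 ± 0.22. With 16 added before log2, XTH20 moved from −1.46 to −0.63 and XTH26 from −1.35 to −0.47, both still called. XTH21 lost its call without DEX-treated array 2 (0.0982), without mp array 1 (0.0886) and with 16 added before log2 (0.122). PME41 was higher by 0.92 ± 0.13. CSLA03, CSLC04 and CSLD2 were lower, at −1.39 ± 0.19, −1.09 ± 0.13 and −0.80 ± 0.12. CSLC5, which was called against the controls, differed by −0.11 ± 0.22 here, with an interval from −0.60 to 0.39. EXPA16 (−0.42 ± 0.26) was called lower without mp array 1 (−0.89, limma adjusted p = 0.00256) and after centring on the hybridization controls (0.0186). EXPA21 was called higher without mp array 2 (0.0187).

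Further wall genes were listed by name. Of 26 genes for wall polymer synthesis, nearly all TBL genes, whose family includes polysaccharide acetyltransferases, 1 fell with DEX in GR-bdl. In mp against the controls 10 fell, 4 rose and 12 were not called, and against DEX-treated GR-bdl 11 were lower and 6 higher. The shares of all probe sets were 2.27% with DEX, 41.5% called (17.5% lower) against the controls and 40.1% (18% lower) against DEX-treated GR-bdl. The median differences of this list were 0.00 with DEX, −0.27 in mp against the controls and −0.37 against DEX-treated GR-bdl, beside 0.04, 0.12 and 0.07 for all probe sets. The gene that fell with DEX, TBL45, read 9.50 and 9.33 in the controls, 7.96 and 8.12 after DEX, and 9.25 and 8.92 in mp. Its difference with DEX was −1.38 ± 0.14 (limma adjusted p = 0.00186), called with any single array left out. Against the controls TBL45 in mp differed by −0.33 ± 0.14 (limma adjusted p = 0.100), a call without mp array 1 (0.0398) and with hybridization control centring (0.00244). Like EXPA4, it read lower in DEX-treated GR-bdl than in both other groups.

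**Figure D4:**
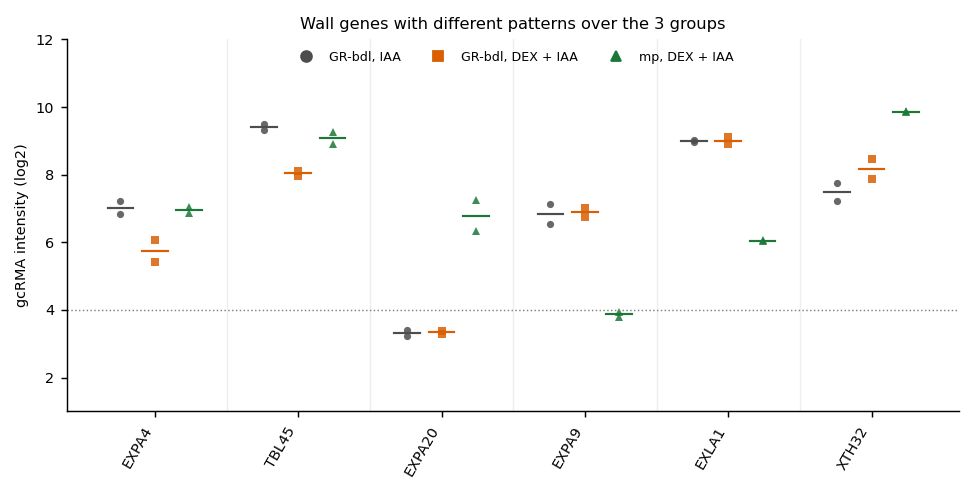
gcRMA intensity (log2) per array for 6 wall genes, with points for arrays, short lines for group means and a dotted line at 4. EXPA4 and TBL45 are lower in DEX-treated GR-bdl than in the other groups, while EXPA20, EXPA9, EXLA1 and XTH32 have mp arrays apart from all GR-bdl arrays.

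TBL38 and TBL36 fell in mp against the controls by 3.01 and 2.48 on the log2 scale (SE 0.15 and 0.13), and TBL26 and TBL28 rose by 1.95 ± 0.17 and 1.19 ± 0.13. Each of these 4 genes was near the low end in mp or in the controls, and with 16 added before log2 the differences shrank to −1.61, −1.41, 1.09 and 0.47, all still called. Of 14 wall hydrolase genes, 4 fell in mp against the controls, 1 rose and 0 were called with DEX by limma, where 2 were higher and 1 lower at an unadjusted p under 0.05. Of all probe sets 41.5% were called in mp against the controls, and 12.4% passed the unadjusted threshold with DEX. The median difference of this list was 0.00 in mp against the controls. GH9C1, a cellulase-family gene of root hairs, fell from 5.92 and 6.23 to 2.81 and 2.93, which is −3.20 ± 0.15 (−1.84 with 16 added before log2). GH9B13 fell by 1.84 (SE 0.18) and GH9B8 rose by 0.80 ± 0.13 within the low end (0.29 with 16 added). Of 3 cellulose deposition genes 1, COB, fell in mp (−0.66 ± 0.15), and its call was lost without control array 2 (limma adjusted p = 0.0545). XEG113, whose enzyme adds arabinose to extensins, fell by 0.94 (SE 0.14), and the laccase gene LAC16 was near the low end in all groups. Among probe sets paired with 1 gene, the name patterns for leucine-rich extensins and proline-rich proteins matched only PEX4, PRP39 and PRP39-2. These are a peroxin and splicing factor genes, so that list holds no wall protein (1 rose and 1 fell in mp against the controls). No gene for a pectin methylesterase inhibitor was found by name.

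Markers of organs and cell types were read beside the wall genes. A marker counts as measured here only if a probe set was paired with that gene alone. Others may have probe sets that were not paired in this way. Of 18 root markers 3 were measured. In mp against the controls JKD fell (−1.52 ± 0.18, and −0.74 with 16 added before log2), NAI2 rose (0.66 ± 0.11), and PYK10 was not called (0.10 ± 0.11). Hybridization control centring ended the NAI2 call. The summed intensity of the root markers was 11248 to 11706 in the controls, 11233 to 11977 after DEX and 13129 to 13643 in mp, nearly all of it from PYK10 and NAI2. JKD also read lower with DEX in GR-bdl, at 4.94 and 4.42 in the controls and 3.74 and 4.02 after DEX, a difference of −0.80 ± 0.18 that was not called (limma adjusted p = 0.0756). It was called with hybridization control centring (0.012), with an intensity trend in eBayes (0.0483) and without control array 2 (−1.06, 0.0367). Of 21 genes listed for root hairs 1 was measured, SCN1, at 820 to 869 in the controls, 852 to 868 after DEX and 473 to 520 in mp, where it fell (−0.77 ± 0.11). IRX10 was the 1 measured of 16 secondary wall markers, with an intensity of 34.0 to 35.9 in the controls, 35.8 to 37.8 after DEX and 17.0 to 19.5 in mp, and fell by 0.94 (SE 0.12, 0.57 with 16 added). The same probe set is also among the lower calls of the wall polymer synthesis list above, so it adds no separate value. YAB3, 1 of 2 measured leaf polarity and shoot apex markers of 6, rose by 1.02 ± 0.14. The other, CLV3, was near the low end in all groups and not called (0.26 ± 0.12). Of 9 photosynthesis markers 4 were measured, with a summed intensity of 37418 to 37576 in the controls, 37249 to 38946 after DEX and 34947 to 36659 in mp. Against the controls SBPASE rose by 0.31 ± 0.11 (limma adjusted p = 0.0451), a call lost without any single array of either group (0.102 to 0.224), with quantile normalization done again (0.0671), with the replicate block (0.0666) and with hybridization control centring (−0.02). LHCB4.1 (−0.17 ± 0.10), RCA (−0.18 ± 0.11) and PRK (0.08 ± 0.11) were not called. LHCB4.1 and RCA were called lower with hybridization control centring (0.0087 and 0.00821), an intensity trend in eBayes (0.00271 and 0.00591) and 16 added before log2 (0.0266 and 0.0369). Whether the listed markers, SCN1, PYK10 and NAI2 among them, track the amount of an organ or cell type in these seedlings was not tested. In bulk seedlings, fewer cells of a type and less RNA per cell cannot be told apart. The part of these markers in the mp differences of the wall genes was not tested.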

How the data were processed

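The deposited values are gcRMA intensities, 1 column per array, made by the authors with GCRMA, per the submitters' processing notes. The sources used here give no version. In general gcRMA uses probe sequence to correct background, brings arrays to one distribution and gives 1 value per probe set, so strong shifts of all genes are flattened and low values are compressed. Array medians from 26.1 to 27.1 are on a linear scale. Groups were taken from the source labels and the design text, since the treatment text names DEX for every sample.

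Intensities were put on the log2 scale without pseudocount or filter, and 64 control probe sets were left out. Of 22746 probe sets, 13513 were paired with 1 gene. RefSeq names (assembly TAIR10.1) gave synonyms and neighbouring genes only. limma 3.58.1 in R 4.3.3 fitted 1 mean per group over all 6 arrays, with 3 residual and 5.12 prior degrees of freedom. P-values were adjusted by Benjamini-Hochberg within each comparison, over every probe set, at 0.05. Levels are means ± SD of 2 arrays, and errors of differences are limma SE with 95% intervals. The code of the fit was run on normal values simulated with its own spread, with far fewer changed probe sets than were called in mp. That run checks the code and not the error rates in these data.

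Every member of a family with up to 6 genes and all CSL genes were named. In EXPA and XTH the rule took up to 4 calls per direction and comparison by size, every call with DEX, and the members of highest and lowest mean. Up to 2 calls per direction, comparison and added list were also named. The remaining EXPA and XTH members and some added genes were chosen after their values were seen. Members, lists and alternatives were chosen with earlier results of these data known.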

Additional observations from a re-analysis of the deposited data

How the results depend on the processing

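The counts over the 36 genes were recomputed under 16 alternatives. These were not all distinct. In each comparison, leaving out either array of the third group gave the same counts as fitting the 4 arrays of the 2 groups compared. The ranges with each array left out include those fits. Of the calls, 17 of 22 in mp against the controls and 18 of 19 in mp against DEX-treated GR-bdl held under every alternative that tested the gene, and 0 of 1 with DEX in GR-bdl. The count with DEX went from 1 to 0 with 16 added before log2, to 2 after centring on the hybridization controls and to 2 with an intensity trend in eBayes, and ranged from 0 to 1 with each array left out. Over all probe sets that comparison had 517 calls, 231 with 16 added before log2, and from 240 to 437 with each array left out. In mp against the controls the 22 calls became 14 with a filter on a mean log2 of at least 4, which left 21 of the genes to test, and ranged from 17 to 22 with each array left out. Centring on the hybridization controls gave 5 higher and 18 lower in place of 7 and 15, and shifted the overall median difference of 0.12 to −0.22 (0.07 to −0.20 against DEX-treated GR-bdl). The hybridization controls themselves differed by 0.34 and 0.27 in these comparisons. Over all probe sets it turned the share of higher calls from 57.7% to 25.7%, and from 55.2% to 29.7% against DEX-treated GR-bdl. With DEX in GR-bdl that share was 28.0%, 17.7% with 16 added before log2, 18.2% without control array 1 and 10.0% without control array 2 (24 of 240 calls). Among called genes, XTH29 (−0.0314) and the photosynthesis marker SBPASE (−0.0243) changed sign in mp against the controls under that centring, and the cause was not tested. A further 9 of the 36 genes, none of them called, also changed sign there. Same-numbered arrays did not deviate together from their group means (correlations of −0.03, −0.04 and 0.10 over probe sets), so the numbers were not used as pairs. The replicate block gave 1, 21 and 19 calls among the 36 genes in the 3 comparisons. The mean over probe sets of a gene was not run, since each gene had 1 probe set. With 1 array left in a group, that array is assumed to vary like the other groups. The 2 arrays per group limit what can be detected, and near the low end of the range a fall is hard to follow. Of the 13 genes there in all 3 groups, 3 were called lower and 3 higher in mp against the controls.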
